A study of Mus musculus with 6 samples.

Results

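Complement components and their receptors were examined in the lungs of R/R and WT mice. The members were 9 genes, taken by mouse symbol from the 56262 genes of the count table: the C1q chains C1qa, C1qb and C1qc, the classical component C4b, the shared component C3, the alternative pathway proteases Cfb and Cfd, and the anaphylatoxin receptors C3ar1 and C5ar1. R/R mice carry RBM47 K329R and K332R, 2 lysine-to-arginine substitutions in an RNA-binding protein, on both alleles. They were made by CRISPR/Cas editing on the C57BL/6 background, and WT mice were their littermates. All mice were 8 weeks of age and untreated, with n = 3 lungs per genotype. The R/R genotype joins both substitutions, so neither can be assessed alone, and each library is bulk RNA of lung, so fewer cells of a type and less RNA per cell cannot be told apart.

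Complement is a cascade of blood and tissue proteins that tags particles for uptake, attracts leukocytes and perforates membranes. In the classical pathway C1q binds antibody or surface ligands, the proteases C1r and C1s cut C4 and C2, and the resulting convertase cuts C3. In the alternative pathway C3 that has turned over spontaneously binds factor B, factor D cuts factor B, and properdin stabilises the convertase. Both routes meet at C3, and the fragments C3a and C5a act on the receptors C3ar1 and C5ar1 of myeloid cells. Most complement in plasma comes from the liver, whereas C1q is made mainly by macrophages and factor D, also called adipsin, mainly by adipocytes.

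The count totals were 16815020 to 18071818 read pairs in R/R lungs and 16501092 to 18141067 in WT lungs. Values are given as CPM, the read pairs of a gene relative to the total of its lung after scaling by the TMM method, and differences as log2 fold changes of R/R over WT from edgeR's quasi-likelihood test with Benjamini-Hochberg adjustment over 17120 tested genes. A gene was called at an adjusted p of 0.05, and 1.75% of the tested genes were called, 0.648% higher and 1.1% lower in R/R lungs. Rbm47 itself was at 33.4 ± 0.712 CPM in R/R and 31.2 ± 2.89 CPM in WT lungs (SD, n = 3), a log2 fold change of 0.10 (edgeR adjusted p = 0.660). No difference in its level was detected. Gene-level counts do not show the substitutions themselves, so this level does not check the genotype labels. Lungs of a genotype correlated at 0.986 to 0.990 across genes (log2 CPM, genes are not independent replicates) and lungs of different genotypes at 0.983 to 0.986. WT lung 3 stood between the genotypes, at 0.986 with the other WT lungs and at 0.985 to 0.986 with the R/R lungs, and values without it are given for the members and for the genes whose call or value it decides. Alveolar and endothelial markers were at high levels in all 6 lungs, with Sftpc at 13238 ± 717 CPM in R/R and 11115 ± 1076 CPM in WT (SD, n = 3).

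C4b and C3 were higher in R/R lungs, and none of the other 7 members passed the test. All 9 members had enough counts to be tested. Of these, 2 were called higher and 0 lower by edgeR, beside 1.75% of all tested genes called in either direction. An unadjusted p under 0.05 was found for 5 members, the 3 C1q genes, C3 and C4b, all of them higher in R/R lungs, beside 14.2% of tested genes. DESeq2 called 1 member, C4b. The log2 fold change was above 0 for all 9 members and for 51.2% of tested genes, with a median of 0.32 over the members and 0.0045 over all tested genes. For 6 members every R/R lung was above every WT lung, an order found for 9.17% of tested genes. The reverse order was found for 0 members and 9.5% of tested genes, and a lack of overlap in either order for 18.7% of tested genes. The members are not replicates of the genotype, since they were measured in the same lungs, and these counts are descriptions.

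**Figure D1:**
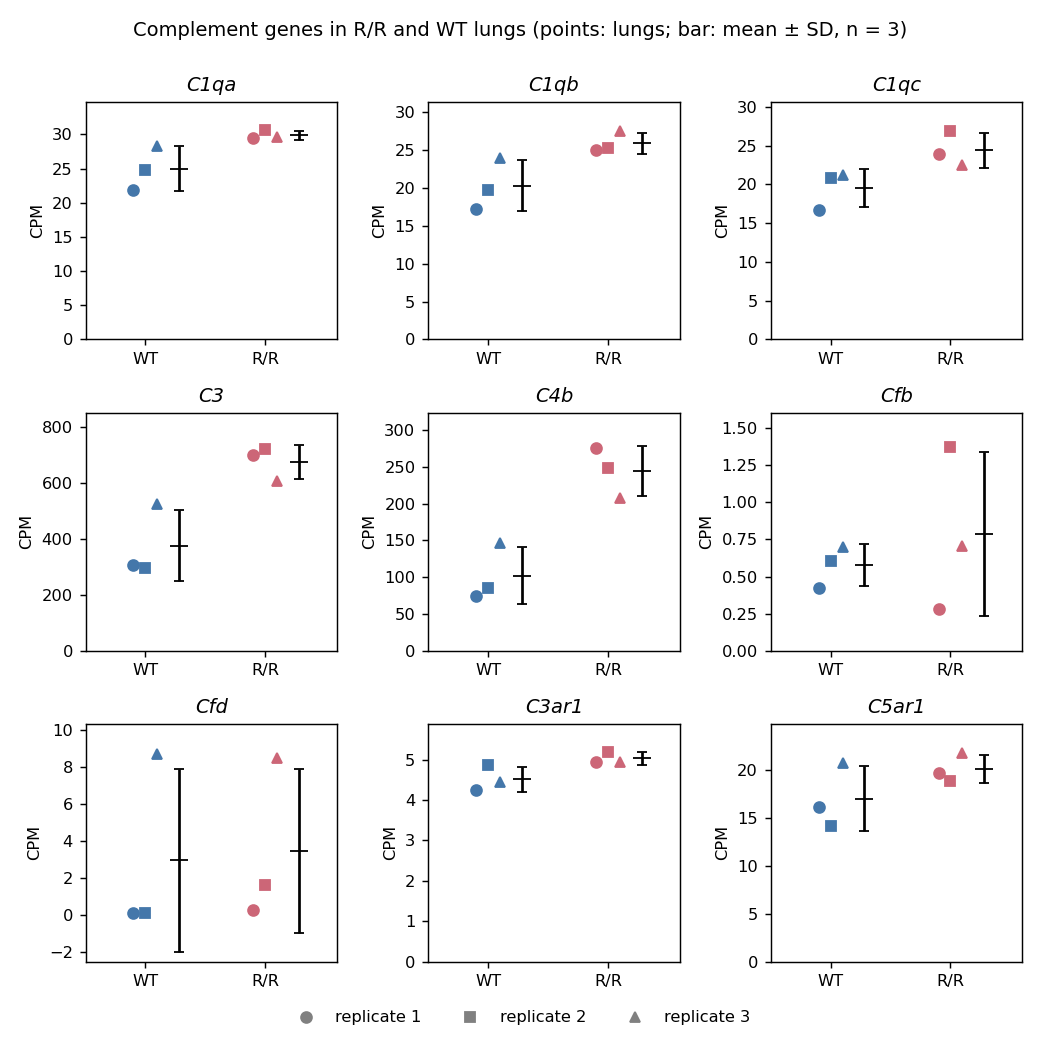
CPM of the 9 members (vertical axis, linear, a scale for each gene) in WT and R/R lungs. Points are single lungs, with a symbol for each replicate number, and bars give the mean ± SD (n = 3 lungs). For C3 and C4b the R/R lungs lie above all WT lungs, whereas for Cfd the replicate 3 lungs of both genotypes stand far above the others and the SD bar reaches below 0.

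C4b encodes complement C4, whose larger fragment binds covalently to surfaces and forms the classical and lectin C3 convertase with C2. The gene (ENSMUSG00000073418.4) lies on chromosome 17, 34728380 to 34743882, minus strand, in GRCm38. C4b was at 275, 249 and 208 CPM in R/R lungs 1, 2 and 3 and at 74.3, 84.6 and 147 CPM in WT lungs 1, 2 and 3. The genotypes did not overlap, and WT lung 3 was the WT lung nearest to the R/R lungs. The mean was 244 ± 33.9 CPM in R/R and 102 ± 39.1 CPM in WT (SD, n = 3). The log2 fold change was 1.26 with a standard error of 0.20, a fold of 2.39, and an edgeR adjusted p of 0.0129 (95% interval 0.82 to 1.70). Without R/R lung 2 the adjusted p of C4b was 0.0653, and it remained called when any other single lung was left out. Without WT lung 3 the log2 fold change was 1.62.

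Mouse chromosome 17 also holds C4a, a near-identical paralog of C4b, and pairs that map to both genes were not counted. The transcripts C4b-201 and C4a-207 were 96.14% identical over 5367 aligned bases. Of the 5230 windows of 150 bases, the read length, in C4b-201, 432 (8.26%) were identical in C4a-207, and the median window had 4 differences. Stretches of 60 bases were compared within single exons, inside the coding sequence and without alignment gaps. Among them, the 1 with the most differences, 13, lay in exon 21 of 41 of both transcripts. It is shown as an example of where the paralogs can be told apart, with the differing bases in capitals. The sequences run 5′ to 3′ on the minus strand of GRCm38, chr17:34735430-34735489 for C4b and chr17:34816086-34816145 for C4a.
C4b: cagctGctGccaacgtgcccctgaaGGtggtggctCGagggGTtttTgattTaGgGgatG
C4a: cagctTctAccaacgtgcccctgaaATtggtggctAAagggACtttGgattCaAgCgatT
C4a itself was at 1.18 ± 0.219 CPM in R/R and 1.31 ± 0.360 CPM in WT lungs (SD, n = 3), a log2 fold change of -0.14 that did not pass the test (edgeR adjusted p = 0.900). With the counts of C4a and C4b summed, the log2 fold change was 1.25 and the adjusted p 0.0125. C4a holds so few counts that the sum could hardly differ from C4b alone, and it does not bring back pairs that map to both genes.

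C3 encodes the component on which all activation routes converge, and its fragments tag surfaces for phagocytes. It lies on chromosome 17, 57203970 to 57228136, minus strand (ENSMUSG00000024164.15). C3 was at 697, 719 and 606 CPM in R/R lungs 1, 2 and 3 and at 305, 296 and 522 CPM in WT lungs 1, 2 and 3. The genotypes did not overlap, and WT lung 3 was again nearest to the R/R lungs. The mean was 674 ± 60.0 CPM in R/R and 375 ± 128 CPM in WT (SD, n = 3). The log2 fold change was 0.85 with a standard error of 0.17, a fold of 1.80, and an edgeR adjusted p of 0.0378 (95% interval 0.46 to 1.23). This call was less stable than that of C4b. It was lost with DESeq2, whose adjusted p was 0.0869, and when any 1 of R/R lungs 1, 2 and 3 and WT lungs 1 and 2 was left out, with adjusted p values up to 0.156 and log2 fold changes of 0.70 to 0.92. Without WT lung 3 it was 1.16 and was called.

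The 250 bases before the annotated start of C3 are shown with the matches to 5 short motifs in capitals, since C3 is a gene whose promoter is known to respond to inflammatory transcription factors. The sequences here and below are from RefSeq (GRCm38.p6), in which a promoter window was matched for 6 of the 9 members (C1qb, C1qc, C3, Cfd, C3ar1 and C5ar1). Both strands were searched for GAAA and GAAA with 2 free bases between them (ISRE-like), TTC and GAA with 3 free bases between them (GAS-like), GGG and CC with 5 free bases between them (NF-kB-like), TTNNGCAA (C/EBP-like) and GAGGAA (PU.1-like), in windows from 250 bases before to 50 bases after the start. The share of all 32851 promoter windows with a match was 3.443%, 8.298%, 50.79%, 10.8% and 28.28%, in this order. The C3 sequence is chr17:57228137-57228386, minus strand, 5′ to 3′.
C3: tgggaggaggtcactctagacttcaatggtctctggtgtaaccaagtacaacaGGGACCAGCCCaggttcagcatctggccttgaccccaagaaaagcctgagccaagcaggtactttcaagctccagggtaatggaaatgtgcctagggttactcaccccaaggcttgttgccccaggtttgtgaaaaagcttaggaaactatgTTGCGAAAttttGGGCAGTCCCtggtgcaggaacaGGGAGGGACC
C3 held 5 NF-kB-like matches, which overlap on opposite strands and fall in 3 stretches, and 1 C/EBP-like match that begins at position -45 from the start. It held 0 ISRE-like and 0 GAS-like matches, as did the other 5 windows. The NF-kB-like letters were also present in C1qb, C1qc, Cfd and C3ar1 and are found in about every other promoter, so a match is a description of the sequence and no measure of binding.

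C1qa, C1qb and C1qc encode the A, B and C chains that assemble together into C1q, the recognition molecule of the classical pathway. The genes lie side by side within 18.675 kb of chromosome 4 (136880129 to 136898803, minus strand), in the order C1qb, C1qc and C1qa. C1qa was at 29.4, 30.6 and 29.6 CPM in R/R lungs 1, 2 and 3 and at 21.9, 24.8 and 28.3 CPM in WT lungs. C1qb was at 24.9, 25.2 and 27.4 CPM in R/R lungs and at 17.2, 19.6 and 23.9 CPM in WT lungs. C1qc was at 23.9, 26.8 and 22.4 CPM in R/R lungs and at 16.6, 20.8 and 21.2 CPM in WT lungs. Every R/R lung was above every WT lung for each chain, and the gap between the nearest lungs was narrow, as between 28.3 and 29.4 CPM for C1qa.

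None of the C1q genes passed the adjusted test. The log2 fold change was 0.26 ± 0.10 (SE) for C1qa (edgeR adjusted p = 0.240), 0.35 ± 0.11 for C1qb (0.164) and 0.32 ± 0.11 for C1qc (0.197). An exact two-sided permutation test of log2 CPM gave 0.1 for each chain, which is the smallest p that 3 against 3 lungs allow, and it also gave 0.1 for C3, C4b and C3ar1. C1qb was called when WT lung 3 was left out (log2 fold change 0.48, adjusted p = 0.0227) and without a filter on low counts (0.36, adjusted p = 0.0201). The fit without a filter called 1109 genes, and its standard error for C3 was 0.067 instead of 0.17. Its calls rest on a smaller estimate of the spread between lungs and are weaker evidence than those of the other fits. With 1 lung left out at a time the log2 fold change was 0.17 to 0.35 for C1qa and 0.21 to 0.38 for C1qc, the highest of each without WT lung 3. Per kb of exon, C1qa made 44.1 ± 0.467%, C1qb 36.5 ± 1.92% and C1qc 19.4 ± 1.56% of the summed C1q level in R/R lungs (SD, n = 3). In WT lungs the shares were 45.6 ± 0.525%, 35.2 ± 1.15% and 19.2 ± 1.10%, so the chains kept nearly the same proportions in both genotypes.

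The upstream sequences of C1qb and C1qc are shown because the genes are neighbours whose chains form 1 protein, again with the motif matches in capitals and 5′ to 3′ on the minus strand. They are chr4:136886201-136886450 for C1qb and chr4:136892915-136893164 for C1qc.
C1qb: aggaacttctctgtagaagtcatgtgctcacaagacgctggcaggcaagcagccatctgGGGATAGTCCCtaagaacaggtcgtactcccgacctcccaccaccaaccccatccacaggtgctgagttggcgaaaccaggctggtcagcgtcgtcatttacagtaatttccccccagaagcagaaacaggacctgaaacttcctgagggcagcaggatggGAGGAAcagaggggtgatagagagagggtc
C1qc: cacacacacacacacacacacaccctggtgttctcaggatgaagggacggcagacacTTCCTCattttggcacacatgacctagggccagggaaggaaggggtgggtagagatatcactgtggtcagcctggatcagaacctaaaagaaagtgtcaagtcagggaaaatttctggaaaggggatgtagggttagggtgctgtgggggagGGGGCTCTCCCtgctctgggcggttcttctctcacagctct
Each held 1 PU.1-like match, at position -30 on the plus orientation of C1qb and at -193 on the opposite strand of C1qc, beside 28.28% of all promoter windows with at least 1. PU.1 is a transcription factor of macrophages and other myeloid cells. The other 4 windows held 0 PU.1-like matches.

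Cfb and Cfd, the proteases of the alternative pathway, had few counts in most lungs. Cfb encodes factor B, which supplies the catalytic part of the alternative C3 convertase, and its counts were 5, 23 and 12 in R/R lungs 1, 2 and 3 and 7, 11 and 12 in WT lungs. The genotypes overlapped, and R/R lungs 1 and 2 were the lowest and the highest of all 6. Its log2 fold change was 0.42 ± 0.52 (SE, edgeR adjusted p = 0.787), and it was -0.24 without R/R lung 2 and 0.58 without WT lung 3. With these counts a difference in Cfb was not detectable, since its 95% interval ran from -0.72 to 1.56. Of the exon length of Cfb, 79.5% is shared with Gm20547, an annotated same-strand readthrough gene over C2 and Cfb that had 0 counts in all 6 lungs. Pairs falling in the shared exons were assigned to neither gene, so the level of Cfb is a lower limit. Cfb was the only member whose exons overlapped another annotated gene.

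Cfd encodes factor D, the protease that cuts factor B. Its counts were 5, 27 and 144 in R/R lungs 1, 2 and 3 and 2, 2 and 148 in WT lungs 1, 2 and 3. The replicate 3 lung of each genotype held most of the counts, at 8.48 CPM in R/R and 8.66 CPM in WT, and the other lungs were between 0.11 and 1.61 CPM. The log2 fold change was 0.22 ± 1.13 (SE, edgeR adjusted p = 0.960). Its sign turned when R/R lung 3, WT lung 1 or WT lung 2 was left out (log2 fold changes of -1.66, -0.34 and -0.36), and it was 4.80 without WT lung 3. Some markers of adipose tissue had their counts in the same lungs as Cfd. Of the 10 listed, 7 had most counts in the replicate 3 lung of both genotypes, by a small margin for Plin4 and with 1 count each for Lep, and Cidec, Cidea and Ucp1 did not. Adipoq, the adipocyte hormone adiponectin, had 10 counts in R/R lung 3, 17 in WT lung 3 and 0 in the other 4 lungs. The counts of Car3, a carbonic anhydrase of fat, were 1, 5 and 84 in R/R lungs and 9, 2 and 111 in WT lungs, and those of the lipid droplet gene Plin1 were 5, 4 and 26 in R/R and 3, 7 and 36 in WT lungs. R/R lung 2 had 27 counts of Cfd and 0 of Adipoq. The part of adipose RNA in the level of Cfd was not tested.

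Profiles over the 6 lungs were compared with the 12750 tested genes that averaged at least 2 in log2 CPM, a level above that of Cfd. Among them the nearest to Cfd was Gm10123, with a root mean square difference of 1.91 in centred log2 CPM, beside a range of 5.96 for Cfd itself. Adipose genes below that level could not be found this way and were closer, Adipoq at 1.19 and Pck1 at 1.22. For C3, whose centred log2 CPM spanned 1.28, the nearest 5 genes were Ahnak2 (0.121), Pkhd1l1 (0.135), Krt79 (0.141), Lrrn4 (0.141) and Chil3 (0.169). Of these, Lrrn4 belongs to the mesothelial and Krt79 and Chil3 to the alveolar macrophage marker list given further on. The C1q trio and C3ar1 spanned 0.57 and 0.29, under the range of 1 set for this comparison.

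C3ar1 and C5ar1 encode the receptors of C3a and C5a, which draw and activate myeloid cells. C3ar1 was at 4.94, 5.20 and 4.95 CPM in R/R lungs and at 4.25, 4.86 and 4.45 CPM in WT lungs, without overlap but with a log2 fold change of only 0.15 ± 0.16 (SE, edgeR adjusted p = 0.748). C5ar1 was at 19.6, 18.8 and 21.7 CPM in R/R lungs and at 16.1, 14.1 and 20.7 CPM in WT lungs. WT lung 3 lay within the R/R range for C5ar1, and its log2 fold change was 0.24 ± 0.13 (SE, edgeR adjusted p = 0.452). It was 0.12 without WT lung 2 and 0.41 without WT lung 3 (adjusted p = 0.0789), whereas C3ar1 stayed between 0.11 and 0.21 with any 1 lung left out and was at 0.14 without WT lung 3. The 95% intervals, not adjusted for the number of genes, were -0.21 to 0.51 for C3ar1 and -0.046 to 0.53 for C5ar1.

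Levels of different members were compared as CPM per kb of exon. In R/R lungs C3 stood first at 131 ± 11.7, followed by C4b at 42.8 ± 5.96, C1qa at 28.7 ± 0.612, C1qb at 23.8 ± 1.27 and C1qc at 12.6 ± 1.16 CPM per kb (SD, n = 3). C5ar1 followed at 7.80 ± 0.570, Cfd at 3.75 ± 4.77, C3ar1 at 1.17 ± 0.0345 and Cfb at 0.278 ± 0.196 CPM per kb. Among neighbours in this order, Cfd overlapped both C5ar1 and C3ar1, and the other neighbours did not overlap. The last place of Cfb is not settled, since its value is a lower limit. It was divided by the full exon length, while pairs in the 79.5% shared with Gm20547 were not counted. In WT lungs C3 was also first, at 72.9 ± 24.8 CPM per kb. There C4b, at 17.9 ± 6.87 CPM per kb, came after C1qa at 24.1 ± 3.11 and C1qb at 18.6 ± 3.09 CPM per kb, and its lungs overlapped those of C1qb. C4b thus ranked above all C1q chains in R/R lungs and among them in WT lungs.

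The classical pathway was set against the alternative pathway within each lung. The classical mean log2 CPM over C1qa, C1qb, C1qc and C4b was 5.53 ± 0.058 in R/R and 4.96 ± 0.27 in WT lungs (SD, n = 3), with every R/R lung above every WT lung. The alternative mean over Cfb and Cfd was 0.073 ± 1.58 in R/R and -0.78 ± 1.84 in WT lungs, and the genotypes overlapped. The classical minus alternative difference was 7.26, 4.97 and 4.14 in R/R lungs 1, 2 and 3 and 6.64, 6.68 and 3.92 in WT lungs. Its mean was 5.46 ± 1.61 in R/R and 5.75 ± 1.58 in WT, so the genotypes differed by -0.29 on the log2 scale, which is less than the spread between lungs of either genotype. With Cfb alone for the alternative pathway the genotypes differed by 0.37, and with Cfd alone by -0.95, both with overlapping lungs. Leaving out 1 lung at a time gave -1.20 to 0.37. The alternative mean, and Cfd within it, varied more between lungs of a genotype than the classical mean did. C3, which both pathways use, was in neither mean. The level of Cfb in the alternative mean is a lower limit, since pairs in its exons shared with Gm20547 were not counted.

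**Figure D2:**
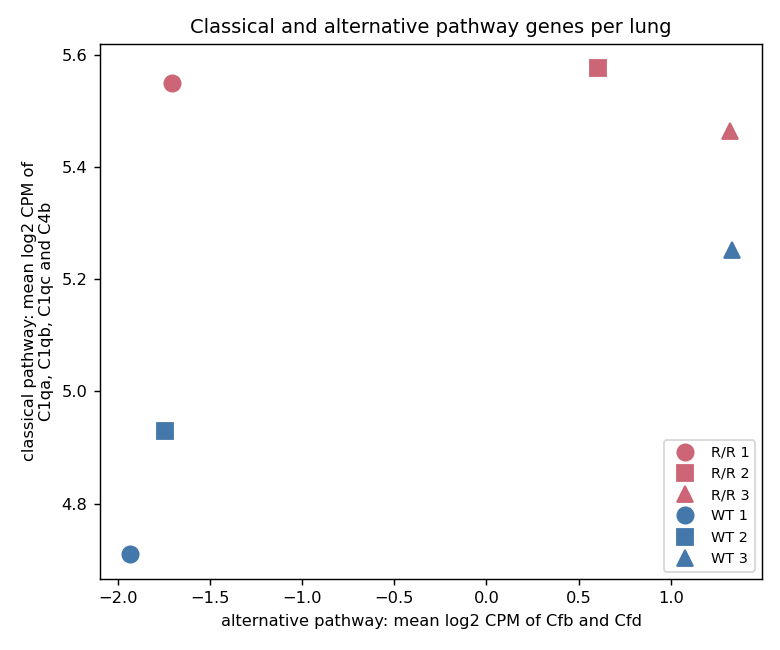
Mean log2 CPM of Cfb and Cfd (horizontal axis) against mean log2 CPM of C1qa, C1qb, C1qc and C4b (vertical axis), with 1 point per lung. The R/R lungs lie above the WT lungs on the classical axis, at 5.46 to 5.58 against 4.71 to 5.25, and the genotypes overlap on the alternative axis.

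The remaining complement genes were read from a list of 56 genes sorted by role, of which 43 had enough counts to be tested. edgeR called 3 of them, C4b, C3 and Clu, all higher in R/R lungs, beside 1.75% of all tested genes called and 0.648% called higher. Without the 9 members, 1 of 34 tested genes, Clu, was called, a count too small to set against these shares. The median log2 fold change of the 34 was 0.02, beside 0.0045 over all tested genes. Clu encodes clusterin, a soluble inhibitor of the membrane attack complex and a chaperone. It was at 168 ± 7.60 CPM in R/R and 127 ± 13.9 CPM in WT lungs (SD, n = 3), a log2 fold change of 0.40 ± 0.08 (SE, edgeR adjusted p = 0.0314). The call on Clu was lost when any 1 of R/R lungs 1, 2 and 3 and WT lungs 1 and 2 was left out, with adjusted p values up to 0.120 and log2 fold changes of 0.33 to 0.43, and without WT lung 3 it was called at 0.49.

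**Figure D3:**
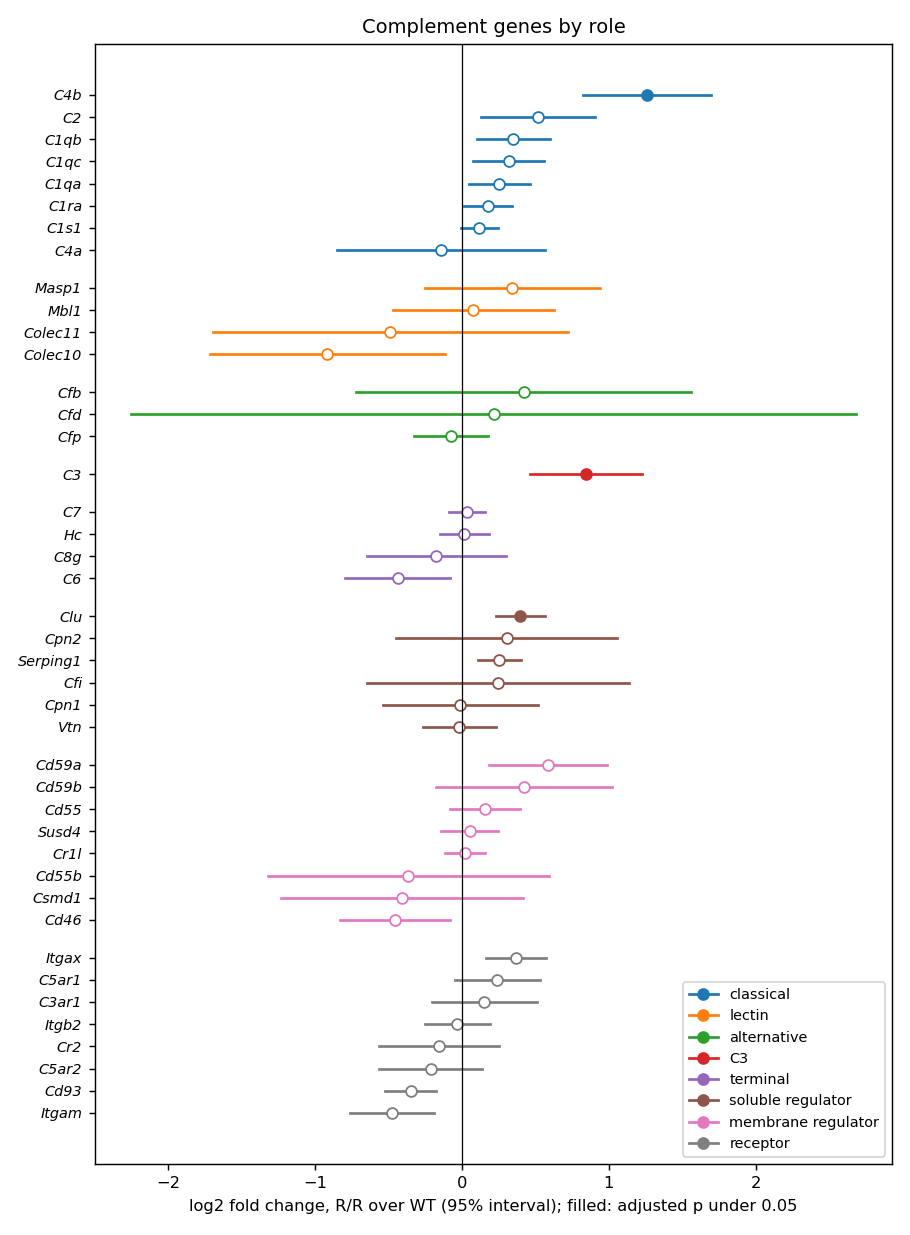
Log2 fold changes of R/R over WT (horizontal axis) for 42 of the 43 tested complement genes, grouped by role, with 95% intervals not adjusted for the number of genes. Filled points passed an edgeR adjusted p of 0.05, which were C4b, C3 and Clu, and the widest interval is that of Cfd.

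Among the 10 listed genes of the classical pathway, the C1q genes and C4b included, 8 were tested. Of these 1, C4b, was called, beside 1.75% of all tested genes. Of the 8 tested, 7 had a log2 fold change above 0, beside 51.2% of all tested genes. An unadjusted p under 0.05 was found for 6, beside 14.2% of tested genes. Every R/R lung was above every WT lung for 6, beside 9.17% of tested genes. The genes were measured in the same lungs, so these counts are descriptions. C2, the protease partner of C4, was at 9.49 ± 2.11 CPM in R/R and 6.64 ± 0.588 CPM in WT lungs (SD, n = 3), a log2 fold change of 0.52 (edgeR adjusted p = 0.195). It shares 42.8% of its exon length with Gm20547. The proteases of the C1 complex showed smaller values, 0.18 for C1ra and 0.12 for C1s1. With the counts of C2, Cfb and Gm20547 summed, the log2 fold change was 0.51 and the adjusted p 0.178. In the lectin pathway, where sugar-binding proteins replace C1q, 4 of 8 genes were tested and 0 were called by edgeR or by DESeq2, with 1 at an unadjusted p under 0.05. That gene was Colec10, a collectin named after its value was seen, at a log2 fold change of -0.91. Masp1, a protease of this pathway, was at 0.34 (edgeR adjusted p = 0.641) and at 0.10 without WT lung 3, and Fcna, a ficolin, had too few counts to be tested.

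All 3 genes of the alternative pathway were tested, and edgeR called 0, with 0 at an unadjusted p under 0.05 and 0 by DESeq2. Cfp, which encodes properdin and had more counts than Cfb or Cfd, was at 18.3 ± 2.21 CPM in R/R and 19.2 ± 2.07 CPM in WT lungs (SD, n = 3), a log2 fold change of -0.07. The terminal pathway forms the membrane attack complex. Of its 7 genes 4 were tested and 0 were called by edgeR or by DESeq2. An unadjusted p under 0.05 was found for 1, C6, beside 14.2% of all tested genes. Hc, which encodes C5, was at 763 ± 68.0 CPM in R/R and 754 ± 43.1 CPM in WT lungs, and C7 at 345 ± 1.62 and 336 ± 10.7 CPM (SD, n = 3). C6 was at 32.3 ± 4.71 and 43.7 ± 12.0 CPM, with a log2 fold change of -0.44 (edgeR adjusted p = 0.240). WT lung 3 was at 57.5 CPM and the other WT lungs at 36.3 and 37.1 CPM, and leaving it out gave -0.19 (adjusted p = 0.447). C8a, C8b and C9 had 0 counts in all 6 lungs. C3 thus differed between genotypes whereas Hc, its structural relative at a level per kb of 122 ± 10.8 in R/R and 120 ± 6.87 in WT lungs, had a log2 fold change of 0.02.

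Regulators limit complement on host cells. Of the soluble regulators 7 of 10 were tested and 1, Clu, was called, beside 1.75% of all tested genes. Serping1, the inhibitor of C1r and C1s, was at 421 ± 30.2 CPM in R/R and 352 ± 14.5 CPM in WT lungs (SD, n = 3), a log2 fold change of 0.26 (edgeR adjusted p = 0.0908), and DESeq2 called it. Cfi, the protease that cuts C3b and C4b, had a log2 fold change of 0.25 and Vtn, vitronectin, one of -0.02. All 8 membrane regulators were tested and edgeR called 0 of them. An unadjusted p under 0.05 was found for 2, beside 14.2% of all tested genes. DESeq2 called 1, Cd59a, which 3 of the 7 alternatives called in all, the fit without a filter on low counts among them. Cd59a, which blocks assembly of the membrane attack complex, was at 16.7 ± 3.90 CPM in R/R and 11.1 ± 2.20 CPM in WT lungs (SD, n = 3), a log2 fold change of 0.59 (edgeR adjusted p = 0.156). Cd46, a cofactor for the cutting of C3b, was at -0.46 (edgeR adjusted p = 0.242), and 14.2% of its exon length lies opposite another transcript. Cd55, which speeds the decay of convertases, was at 0.16 and Cr1l, the rodent regulator Crry, at 0.02.

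Of the 9 receptor genes, C3ar1 and C5ar1 included, 8 were tested and edgeR called 0. An unadjusted p under 0.05 was found for 3 (Itgam, Itgax and Cd93), beside 14.2% of all tested genes. DESeq2 called Itgax and Cd93. Of 7 alternatives to the test, scaling, filter and design, Cd93 was called lower in 5 and Itgax higher in 3. The fit without a filter on low counts, whose calls are weaker evidence, was among these for both genes. Both were also called without WT lung 3. Itgam, the alpha chain of complement receptor 3, was at 6.64 ± 0.355 CPM in R/R and 9.24 ± 0.308 CPM in WT lungs (SD, n = 3), a log2 fold change of -0.48 (edgeR adjusted p = 0.106), and it shares 68.7% of its exon length with the same-strand gene Gm49368. Itgax, the alpha chain of complement receptor 4, was at 76.0 ± 8.60 and 58.9 ± 6.10 CPM, with a log2 fold change of 0.37 (edgeR adjusted p = 0.0770). Their common beta chain Itgb2 was at -0.03. Cd93, an endothelial and myeloid surface protein first described as a C1q receptor, was at 708 ± 17.3 and 901 ± 96.4 CPM, with a log2 fold change of -0.35 (edgeR adjusted p = 0.0529). C5ar2, the second C5a receptor, was at -0.21 and Cr2, the B cell receptor for C3d, at -0.16. Vsig4, a macrophage receptor for C3b, had too few counts to be tested.

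Markers of the cells that could supply complement RNA were read beside the members. For every marker list, calls stand beside 1.75% of all tested genes called, and counts at an unadjusted p under 0.05 beside 14.2%. The summed level of 9 alveolar macrophage markers was 960 to 1081 CPM in R/R and 668 to 852 CPM in WT lungs, without overlap, and edgeR called 2 of the 9 higher, Chil3 (log2 fold change 0.68, adjusted p = 0.0233) and Mrc1 (0.42, adjusted p = 0.049). Without Chil3, the most abundant, the other 8 summed to 377 to 416 CPM in R/R and 327 to 364 CPM in WT lungs, also without overlap. The largest of these 8, Car4, was at 137 CPM in R/R and 147 CPM in WT lungs. It is also in the endothelial list and was the 1 gene of the 9 below 0 in log2 fold change (-0.10). Cidec is also in the adipose list. The interstitial macrophage and monocyte list, whose cells are a known source of C1q, was at 575 to 658 CPM in R/R and 498 to 600 CPM in WT lungs, with overlap and 0 of 9 tested genes called by edgeR (4 at an unadjusted p under 0.05). Of these 4, Cx3cr1 (log2 fold change -0.50) and Ccr2 (-0.32) were lower and Lyve1 (0.39) and Ms4a7 (0.89) higher in R/R lungs. Without Lyve1, the most abundant, the sums were 293 to 308 CPM in R/R and 306 to 333 CPM in WT lungs, also with overlap. Alveolar type 2 cells also make C3, and their 5 markers summed to 23357 to 24623 CPM in R/R and 18053 to 22704 CPM in WT lungs, without overlap and with 0 called (3 at an unadjusted p under 0.05). Sftpc made up most of that sum, and the other 4 overlapped, at 10368 to 11128 CPM in R/R and 8042 to 10545 CPM in WT lungs. The mesothelial list was at 124 to 217 CPM in R/R and 133 to 153 CPM in WT lungs, with overlap and with Lrrn4 called higher (1.01, edgeR adjusted p = 0.0124) of 5 tested. An unadjusted p under 0.05 was found for 4 of the 5, and of these only Upk1b was lower in R/R lungs (-0.50). The part of cell composition in the differences of C3, C4b and the C1q genes was not tested.

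Fibroblast markers summed to 2294 to 2508 CPM in R/R and 2834 to 2954 CPM in WT lungs, with 0 of 6 called by edgeR (1 at an unadjusted p under 0.05), 4 below and 2 above 0 in log2 fold change. Without Npnt, the most abundant, the sums overlapped, at 1140 to 1225 CPM in R/R and 1207 to 1475 CPM in WT lungs. The 6 neutrophil markers summed to 63.9 to 93.5 CPM in R/R and 66.5 to 188 CPM in WT lungs, with 0 of 5 tested genes called and all 5 at an unadjusted p under 0.05. The dendritic list (116 to 126 against 119 to 140 CPM), the endothelial list (2895 to 3089 against 3010 to 3418 CPM) and the adipose list (22.5 to 32.5 against 17.6 to 35.5 CPM) overlapped, with 0 genes called and 0, 1 and 1 at an unadjusted p under 0.05. Only 2 of the 10 adipose genes, Cidec and Plin4, had enough counts to be tested. Cidec, the most abundant and the 1 at an unadjusted p under 0.05, is also in the alveolar macrophage list. Without Cidec the adipose sums were 5.83 to 15.7 CPM in R/R and 7.23 to 19.9 CPM in WT lungs. Hepatocyte markers were near 0, with a sum of 0.29 to 0.72 CPM in R/R and 0.61 to 1.55 CPM in WT lungs and Serpina1a at 0 counts in all 6 lungs.

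**Figure D4:**
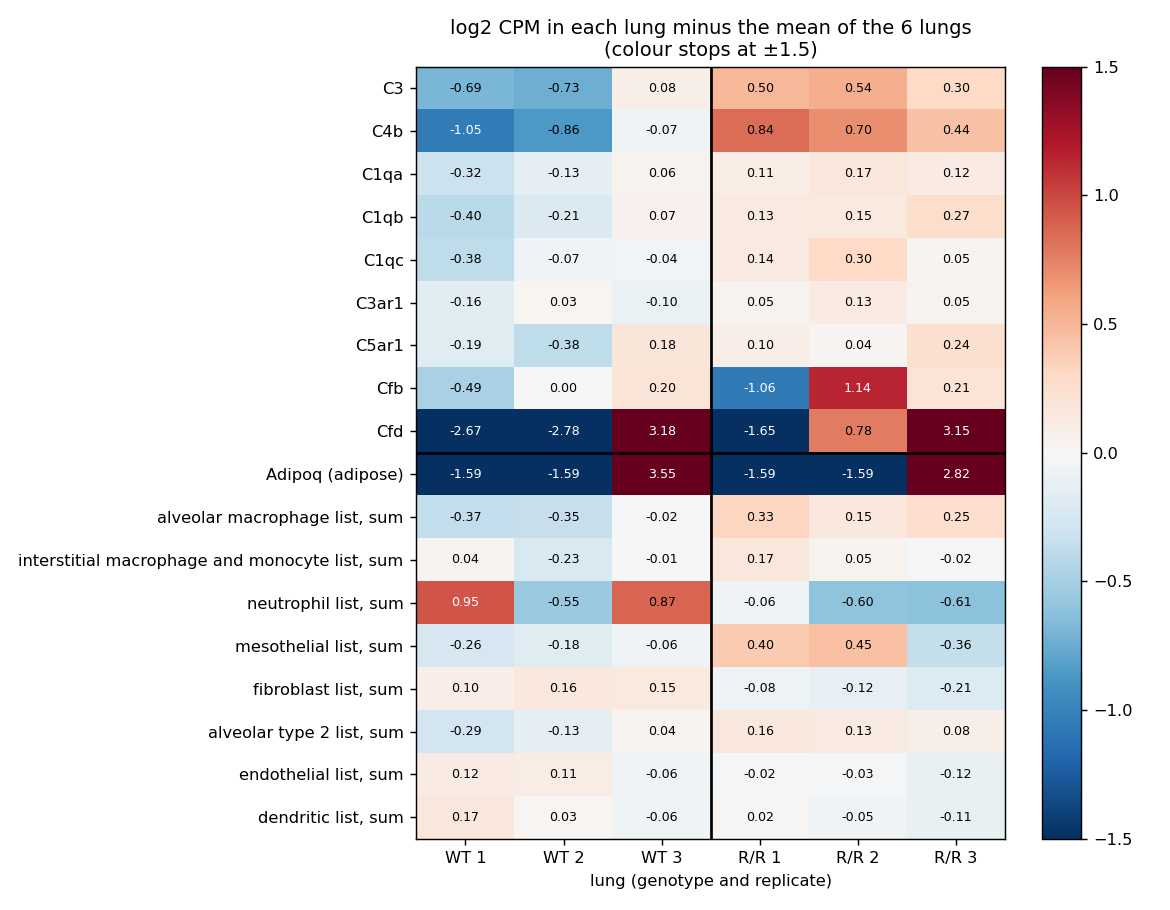
log2 CPM in each lung (columns, genotype and replicate) minus the mean of the 6 lungs, for the 9 members, Adipoq and the summed marker lists (rows). Numbers give the value in each cell and the colour stops at ±1.5. C3 and C4b are above the mean in the 3 R/R lungs, WT lung 3 lies nearest to them, and Cfd and Adipoq are both highest in the replicate 3 lungs.

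WT lung 3 was the highest WT lung for 8 of the 9 members, with C3ar1 as the exception. It was also the highest WT lung for the alveolar macrophage sum (852 CPM) and the alveolar type 2 sum (22704 CPM). R/R lung 3, which like WT lung 3 held Adipoq counts, was the lowest R/R lung for C3, C4b and C1qc. With both lungs left out, a comparison chosen after seeing the data, C3 had a log2 fold change of 1.23 and C4b of 1.72, and both were called (edgeR adjusted p = 8.76e-06 for each). In the same comparison of 2 against 2 lungs, 2 members were called in all, C1qb was at 0.44 (adjusted p = 0.0550) and Cfd had too few counts to be tested.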

How the data were processed

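RNA from 6 lungs, 3 of R/R and 3 of WT mice, was sequenced as paired-end reads of 150 bases. The authors aligned reads to GRCm38 (mm10) with HISAT2 2.1.0, per the labels, and deposited unnormalised counts, for which featureCounts 2.0.1 assigned read pairs to GENCODE M25 genes per the file header. One deposited column was recorded as estimated counts only because of how its name was parsed. Its values are whole numbers and none was rounded. Strand was not used in counting, although the supplement describes stranded sequencing, and pairs that mapped to several places or overlapped several genes were not counted. The supplement names Trizol and edgeR, whereas the labels name RNeasy columns and the submitters' processing notes name DESeq2. The replicates were described as biological.

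Symbols and coordinates came from GENCODE M21 by gene identifier (55227 of 56262 matched). In R 4.3.3, edgeR 4.0.16 (filterByExpr with a minimum count of 10 and a minimum total of 15, TMM, glmQLFit and glmQLFTest) was fitted to all genes, and scripts were tested on simulated data. log2 CPM used a prior count of 0.5. In the exact permutation test 3 against 3 lungs cannot go below 0.1. CPM per kb used the exon length deposited with the counts. Alternatives used DESeq2 1.42.0 and limma 3.58.1. Named genes were the members, preset genes of the role list with any others of it past the threshold, the 5 nearest profiles, marker list genes and genes overlapping members' exons. Members, lists and tests were chosen with earlier results of these data known. The planned comparison of proteins was not made. Counts limit low genes such as Cfb and Cfd. The edgeR p-values set a genotype difference against the spread between these lungs, which is estimated with information shared over the tested genes. One gene of the role list is counted in its totals and is not reported here.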

Additional observations from a re-analysis of the deposited data

How the results depend on the processing

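Against 300 called genes, 2 of them members and 3 of them in the role list, DESeq2 called 541, 1 and 6, and no filter on low counts called 1109 genes and 10 of the role list. Leaving out 1 lung at a time gave 65 to 621 genes, 0 to 3 members and 0 to 6 of the role list. Without both lungs that held Adipoq counts, an alternative chosen after seeing the data, 575 genes and 9 of the role list were called. C3 lost its call with DESeq2 (log2 fold change 0.85), and C1qb gained one without the filter (0.36). The standard error of C3 without the filter was 0.067 instead of 0.17, so calls of that fit rest on a smaller estimate of the spread between lungs. With 1 lung left out, the log2 fold change was 0.25 to 0.48 for C1qb, 0.70 to 1.16 for C3, 1.08 to 1.62 for C4b, -0.24 to 0.83 for Cfb and -1.66 to 4.80 for Cfd. It also changed sign for genes near 0, namely Hc (-0.056 to 0.066), C4a (-0.31 to 0.085), Vtn (-0.10 to 0.059), Cr1l (-0.031 to 0.062), Cr2 (-0.26 to 0.065) and Itgb2 (-0.12 to 0.069). Without both Adipoq lungs the sign changed for Hc (-0.0097), Vtn (0.13) and Itgb2 (0.0092). The cause was not tested. Library size without TMM, upper-quartile factors, limma-voom and a filter of 1 CPM in 3 libraries kept the calls on C3 and C4b.

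Same-numbered R/R and WT lungs did not deviate together (correlations of -0.014, -0.0036 and -0.015 over 17120 genes), and no lung correlated best with its own number, so the numbers were not taken as pairs. With the replicate block 446 genes, 2 members and 6 of the role list were called, against 300, 2 and 3 without the block. The added calls of the role list were Cd59a, Itgax and Cd93.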
